A study of Homo sapiens with 4 samples.

Results

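The genes described here are 39 that encode lysosomal enzymes, lysosomal membrane proteins, the enzyme that tags hydrolases for the lysosome and 2 transcription factors that control such genes. They were taken by name, and each symbol matched 1 gene ID, so 39 of the 61852 genes in the deposited tables are covered. Poly(A) RNA was sequenced from H1299 cells, a cell line derived from a human non-small-cell lung carcinoma; the genotype of all 4 libraries is p53-/-. The tested cells expressed CASM34, a p53 mutant, and the others expressed wild-type p53 (p53WT), with 2 libraries in each group. The series is about synonymous mutations of cancers, and the question is which RNAs of the lysosome differ when CASM34 takes the place of p53WT. How p53 was introduced, its promoter and whether a line came from 1 clone are not stated in the labels, no treatment is stated, and no library without p53 was analysed here.

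Lysosomes are acidic organelles in which proteases, glycosidases, sulfatases and lipid hydrolases break down macromolecules that arrive by endocytosis and autophagy. Most soluble hydrolases receive a mannose-6-phosphate tag in the Golgi, and loss of single enzymes causes storage diseases in which the undigested substrate accumulates. TFEB and TFE3, members of the MiT family of transcription factors, move to the nucleus when the kinase mTORC1 is inactive at the lysosome, and they bind a short palindrome in the promoters of many lysosomal genes, the CLEAR element.

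Of the 39 genes 3 rose in CASM34, 0 fell and 36 did not pass the test. The 3 were IDUA, which trims heparan and dermatan sulfate, ARSA, which removes sulfate from sulfatide, and GNPTG, a subunit of the tagging enzyme. All 39 had enough counts to be tested, with 53 to 11457 estimated counts per library. The test was the quasi-likelihood F test of edgeR over all genes, where a gene rises or falls at a Benjamini-Hochberg adjusted p under 0.05, and it called 1.95% of the 15965 genes tested (1.61% rose and 0.345% fell). IDUA and ARSA are among the 5 genes of the list under 10 TPM on average. The transcripts of the 3 are rich in G and C, a property that moved with the groups over all genes. No member passed with an offset for GC content and transcript length (0.76% of genes called) or with an offset for effective length (0.0313%). None passed in limma on log2(TPM + 1) (0.0%) or in DESeq2, which gave 18 members, these 3 included, no adjusted p. The share called by DESeq2, 0.791%, is over 26177 genes. Those with no adjusted p are counted in it, so it cannot be set beside the other shares. The 3 passed again with median-of-ratios scaling (1.94% called), and with no filter on low counts (2.97%) or a replicate block (7.26%) more members passed, 6 and 8. Leaving out 1 library, 1 member passed without p53WT replicate 1 (0.649% called), 0 without p53WT replicate 2 (0.936%). Without CASM34 replicate 1 it was 5 (3.04%), and with only CASM34 replicate 1 kept in that group it was 6 (5.53%). Each such fit leaves a group with 1 library, which is assumed to vary like the pair of the other group, so a pass or a loss there is a description and no support for a gene. Separate cultures are not documented for the 2 libraries of a group, so the p-values rest on the spread of these libraries only, and that spread may be technical.

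Over the whole series, the estimated counts totalled 26906095 and 18086983 in the CASM34 libraries and 21717726 and 25969760 in the p53WT libraries. The cells carried the RNAs of VIM (3466 to 3735 TPM in CASM34 and 3225 to 3333 TPM in p53WT) and KRT18 (1091 to 1096 TPM in each library). KRT8 had 442 to 459 TPM in CASM34 and 420 to 426 TPM in p53WT, and CDH2 had 13.5 to 15.2 TPM over the libraries. The keratin gene KRT19 had only 0.32 to 0.54 TPM. The epithelial adhesion genes EPCAM and CDH1 and the lung lineage genes NKX2-1, NAPSA and SFTPB were too low to test. Of 8 markers of macrophages and other leukocytes, cells rich in lysosomes, 7 were too low to test, at no more than 0.184 CPM in any library. Only ITGAM was tested, and it did not pass (log2 fold change 0.41, SE 0.17, edgeR adjusted p = 0.239). Of 7 markers of fibroblasts and endothelium 3 were tested (COL1A1, DCN and VWF), at no more than 2.79 CPM in any library, and none passed. The p53 target genes CDKN1A and MDM2 had log2 fold changes of 0.38 and 0.23 (edgeR adjusted p = 0.00274 and 0.0255). In bulk RNA, fewer cells of a type and less RNA per cell cannot be told apart.

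The promoters of these genes were looked at for the CLEAR element, since TFEB and TFE3 are on the list and since GNPTG, a gene that rose, carries it. RefSeq windows (GRCh38.p14, from 250 bases before to 50 bases after each annotated start) were at hand for 30 of the 39 genes, 47 windows in all. ARSA, which rose, is among the 9 genes with no window, so its promoter was not searched. Its core TCACGTGA, which reads the same on both strands, was found in 7 genes, 8 of 47 windows or 17.0%, against 0.980% of all 35116 windows, and the full element, which is the core with a G before it and a C after it, in GAA, GALNS, GNPTG and MCOLN1, 8.51% of windows against 0.353%. The CLEAR element was originally described from lysosomal promoters, so this share describes the list and not the libraries. The cores are shown with 11 bases on either side, 5′ to 3′ on the gene's strand, with the core in capitals.
GNPTG, upstream copy (chr16:1351907-1351936, plus strand): ggtccccgtggTCACGTGAccgtcacttca
GNPTG, downstream copy (chr16:1351923-1351952, plus strand): tgaccgtcactTCACGTGAccgcgcggcgg
GAA, upstream copy (chr17:80101493-80101522, plus strand): gggaggccgcgTCACGTGAcccaccgcggc
GAA, downstream copy (chr17:80101538-80101567, plus strand): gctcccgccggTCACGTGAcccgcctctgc
GALNS (chr16:88857104-88857133, minus strand): caggcaccgcgTCACGTGAcccgccgctgg
MCOLN1, upstream copy (chr19:7522571-7522600, plus strand): accagaggcggTCACGTGAggggctctggg
MCOLN1, downstream copy (chr19:7522598-7522627, plus strand): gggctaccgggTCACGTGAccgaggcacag
LAMP1, upstream copy (chr13:113297199-113297228, plus strand): gacccgcgggaTCACGTGAcgcccgggcgc
LAMP1, downstream copy (chr13:113297226-113297255, plus strand): cgcggcgcagcTCACGTGAcaagcgctgcc
CTSA (chr20:45891298-45891327, plus strand): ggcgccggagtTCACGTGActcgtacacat
CLN3 (chr16:28492058-28492087, minus strand): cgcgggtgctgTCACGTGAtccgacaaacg

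GNPTG, GAA, MCOLN1 and LAMP1 each held 2 copies of the core. In GNPTG the first base of the upstream copy lay 13 bases before the annotated start, and that of the downstream copy was base 4 of the transcript. The 250 bases before the RefSeq start of GNPTG (chr16:1351681-1351930, plus strand) are shown because this is the one promoter at hand that joins the full element, in capitals, to a gene that rose.
GNPTG, upstream: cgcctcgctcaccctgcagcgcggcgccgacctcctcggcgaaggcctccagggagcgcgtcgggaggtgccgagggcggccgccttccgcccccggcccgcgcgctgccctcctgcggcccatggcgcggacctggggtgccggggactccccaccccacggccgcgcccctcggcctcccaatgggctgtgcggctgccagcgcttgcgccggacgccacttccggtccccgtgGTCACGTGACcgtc

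A related sequence, the M-box TCATGTGA (TCACATGA on the other strand), which MiT factors also bind, was found in the windows of CD63, GALC, PPT1 and TPP1, 4 of the 47 windows, against 351 of all 35116. It is shown for PPT1, whose log2 fold change was the lowest of the list, with the M-box in capitals.
PPT1 (chr1:40097238-40097267, minus strand): cgcgcccgcggTCATGTGAcacagcgaaga

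The 7 genes with the CLEAR core had a median log2 fold change of 0.10, from -0.03 for CLN3 to 0.34 for GNPTG, and 1 of them rose. That gene, GNPTG, was a reason for looking at the element, so its count among the 7 was known beforehand and shows nothing about the motif. The 23 genes with a window and without the core had a median of 0.05, from -0.18 for PPT1 to 0.83 for IDUA, and 1 of them rose. Over all genes tested 1.61% rose. The transcripts of the 7 had a median GC content of 59.3% and those of the 23 one of 51.5%. With the GC and length offset CLN3 lay at -0.14, MCOLN1 at -0.12, GALNS at -0.03 and GAA at -0.01. CTSA then lay at 0.05, LAMP1 at 0.06 and GNPTG at 0.21, where the median of the whole list was 0.01. The 4 genes with the M-box had a median of -0.02, and none passed. These are counts of letters in a window and were given no test.

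The genes spanned a wide range of levels, from the tetraspanin gene CD63 to the transcription factor gene TFEB. On the scale of TPM, which corrects for transcript length, CD63 was the highest with 523 and 526 TPM in CASM34, against 486 and 500 TPM in p53WT. PSAP followed with 234 and 235 TPM in CASM34, against 227 and 218 TPM in p53WT. In all, 5 genes had a mean of at least 100 TPM over the 4 libraries (CD63, PSAP, CTSD, CTSA and CTSB), and 5 had one under 10 TPM (ARSA, NAGLU, GALC, IDUA and TFEB). The list summed to 2315 and 2305 TPM in CASM34, against 2210 and 2217 TPM in p53WT, which is 0.232% and 0.231% of all TPM in CASM34 and 0.221% and 0.222% in p53WT.

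**Figure D1:**
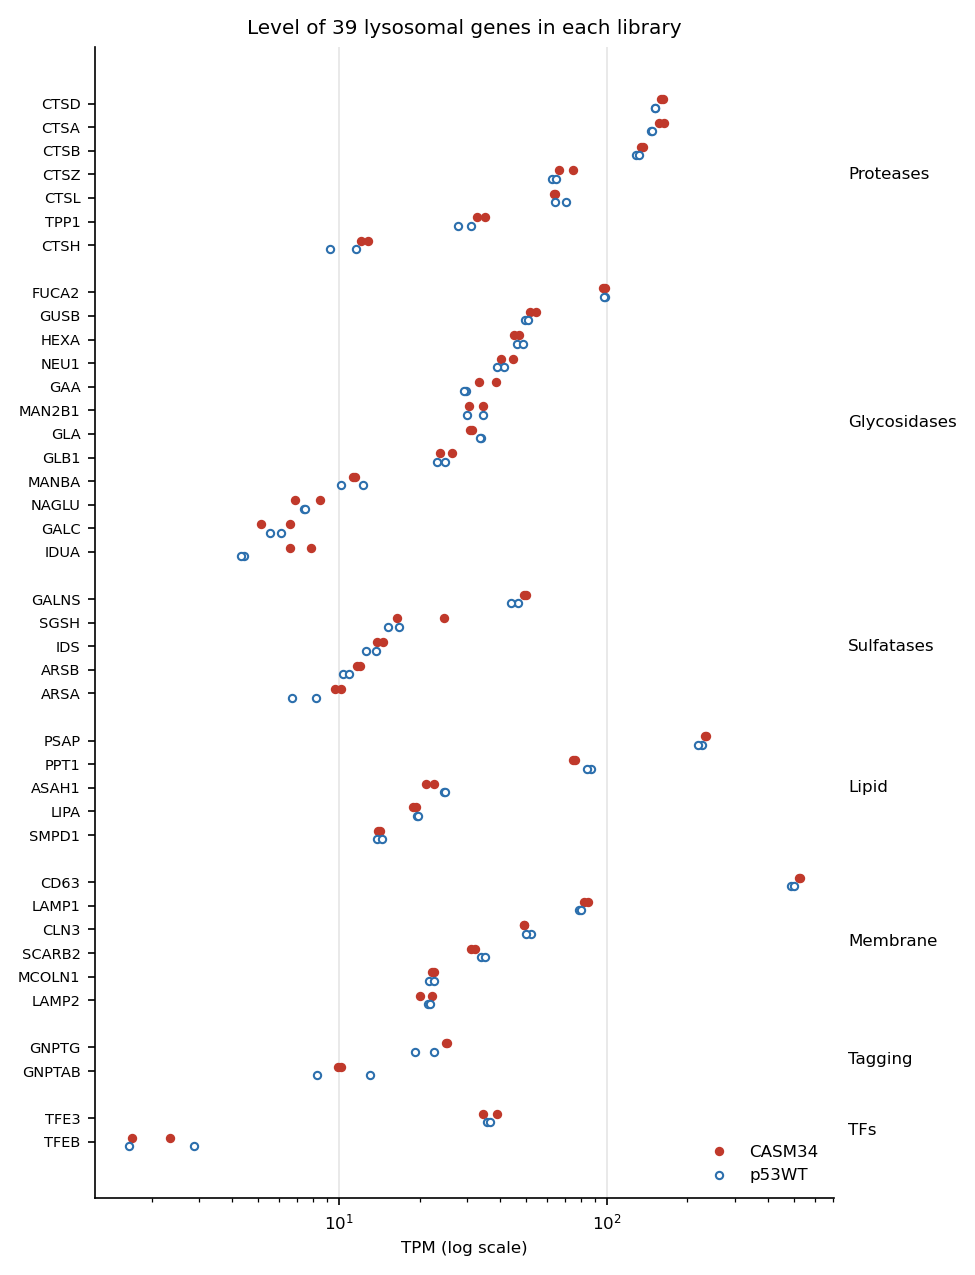
TPM (log scale) of the 39 genes in each library, by role and, within a role, from the highest mean level to the lowest; filled points are CASM34 and open points are p53WT, 2 libraries each. Levels ran from about 2 TPM for TFEB to over 500 TPM for CD63, and for most genes the libraries of both groups lay close together.

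In CPM, the counts scaled to library size by TMM, the groups did not overlap for 28 of the 39 genes, 21 of them higher and 7 lower in CASM34, while 47.9% of all genes tested did not overlap (24.5% higher and 23.4% lower). By fitted log2 fold change 28 genes lay above 0 and 11 below 0 (median 0.07), and over all genes tested 7956 lay above and 8009 below 0, with a median of 0.00. The differences were small. For 21 of the 39 genes the log2 fold change lay within 0.1 of 0, and 4 genes exceeded 0.3 (IDUA, ARSA, CTSH and GNPTG). The median absolute log2 fold change was 0.09 for the list and 0.11 for all genes tested. With the GC and length offset the median over the list was 0.01, with 23 of the 39 above 0.

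**Figure D2:**
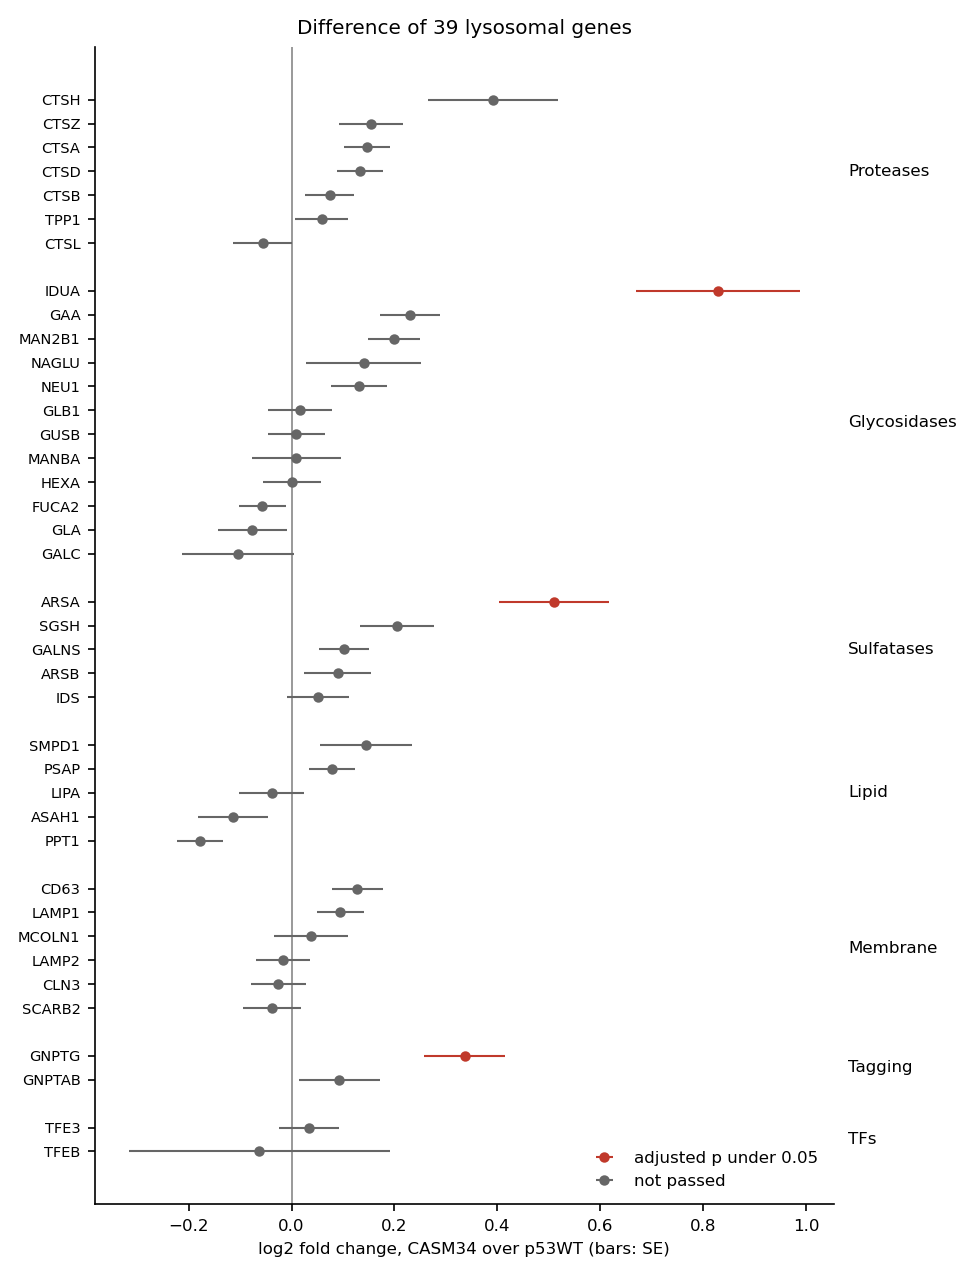
Log2 fold change of CASM34 over p53WT by edgeR for the 39 genes, by role; bars are standard errors, and red marks an adjusted p under 0.05. IDUA, ARSA and GNPTG passed, at 0.83, 0.51 and 0.34, and the other 36 lay between -0.18 (PPT1) and 0.39 (CTSH).

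None of the 7 protease genes passed. Of the cathepsins and the tripeptidyl peptidase TPP1, 6 lay above 0 and CTSL lay below 0 at -0.06, with a median of 0.13. With the GC and length offset 4 lay above 0, with a median of 0.02. CTSD, the main aspartic protease of the lysosome and the most abundant protease here (ENSG00000117984.15, GRCh38 chromosome 11, 1752752 to 1764573, minus strand, GENCODE 29), had 162 and 159 TPM in CASM34, against 151 and 151 TPM in p53WT. Its CPM was 231 and 230 in CASM34, against 207 and 213 in p53WT. Both CASM34 libraries lay above both p53WT libraries, with a log2 fold change of 0.13 (SE 0.04, adjusted p = 0.147 by edgeR), and the offset for GC and length turned it to -0.07. CTSD shares 1304 exon bases, 41.7% of its exons, with the ENSG00000250644 gene on the same strand, and its counts were fractional in all 4 libraries.

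CTSH, an aminopeptidase of the papain family (ENSG00000103811.18, chromosome 15, 78921058 to 78949574, minus strand), had the largest fold of the proteases. It had 11.5 and 13.3 CPM in CASM34, against 8.70 and 10.0 CPM in p53WT. The groups did not overlap, but the libraries within each group were well apart, and the log2 fold change of 0.39 (SE 0.13, adjusted p = 0.132 by edgeR) did not pass. It was among the folds that moved least with the GC and length offset, at 0.36, and leaving out 1 library it lay between 0.29 and 0.50. It was lower with the effective length offset, at 0.27 (SE 0.16), and in limma on log2(TPM + 1), at 0.25. The cysteine protease CTSB lay at 0.07, at 0.03 without p53WT replicate 1 and at -0.00 once corrected for GC and length. The cysteine protease CTSZ lay at 0.15, and once corrected for GC and length at 0.02. Without CASM34 replicate 1 CTSZ lay at 0.25 and passed (edgeR adjusted p = 0.0280), and without CASM34 replicate 2 it lay at 0.07. The tripeptidyl peptidase TPP1, which is deficient in a childhood neuronal ceroid lipofuscinosis, lay at 0.06.

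CTSA, the carboxypeptidase also called protective protein, had 222 and 226 CPM in CASM34, against 200 and 205 CPM in p53WT, a log2 fold change of 0.15 (SE 0.04, adjusted p = 0.114 by edgeR). Once corrected for GC and length CTSA lay at 0.05. It shares 1038 exon bases, 17.7% of its exons, with NEURL2 on the opposite strand (log2 fold change 0.60, edgeR adjusted p = 0.253). CTSA also shares 200 exon bases, 3.42% of its exons, with PLTP on the opposite strand, a lipid transfer gene that rose by 0.49 (edgeR adjusted p = 0.000686). The strand setting of the counting is not given in the sources used here, so reads from the shared bases cannot be assigned to 1 of the genes. CTSA holds the sialidase NEU1 and the galactosidase GLB1 in a complex in the lysosome. NEU1 lay at 0.13 and GLB1 at 0.02, and neither passed (edgeR adjusted p = 0.235 and 0.920).

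Among the 12 glycosidase genes IDUA rose and the other 11 did not pass. IDUA encodes alpha-L-iduronidase, the enzyme deficient in mucopolysaccharidosis I (ENSG00000127415.13, chromosome 4, 986997 to 1004506, plus strand). It had 7.75 and 8.44 CPM in CASM34, against 5.06 and 4.06 CPM in p53WT, from 207 and 154 estimated counts in CASM34 and 110 and 105 in p53WT. Both CASM34 libraries lay above both p53WT libraries, and TPM gave the same order, with 6.57 and 7.86 TPM in CASM34 and 4.41 and 4.31 TPM in p53WT. The log2 fold change was 0.83 (SE 0.16, adjusted p = 0.0216 by edgeR), a fold of 1.78. The call was lost without p53WT replicate 2 (0.67, edgeR adjusted p = 0.108) and held without each of the other libraries. Corrected for GC and length the value was 0.52 (adjusted p = 0.156), and corrected for effective length it was 0.73 (adjusted p = 0.282). Limma on log2(TPM + 1), a scale that understates low genes, gave 0.61 (adjusted p = 0.338).

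The exons of IDUA overlap those of the sulfate transporter gene SLC26A1, which lies on the opposite strand, in 534 bases, 13.4% of the exon bases of IDUA. SLC26A1 had 81.0 and 43.1 estimated counts in CASM34, against 56.0 and 53.8 in p53WT, and did not pass (edgeR adjusted p = 0.680). Estimated counts of IDUA were fractional in 2 libraries, so its level includes shared reads and is uncertain to that extent.

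**Figure D3:**
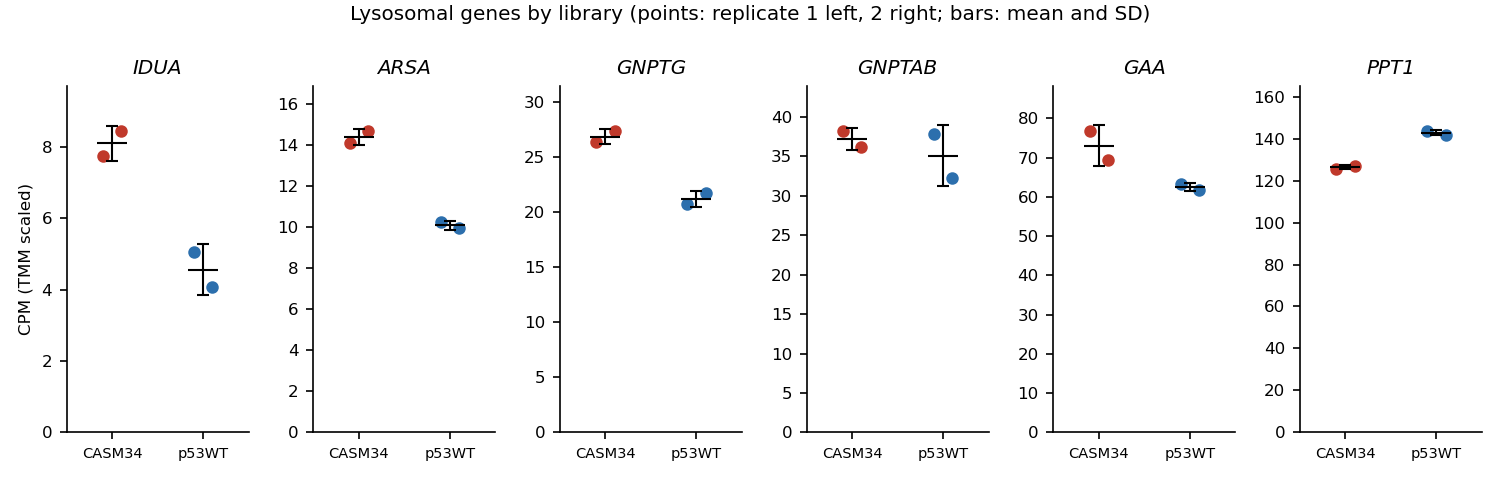
CPM (TMM scaled, linear axes from 0) of 6 genes in each library; points are libraries, and bars give the mean and SD of the 2 libraries of a group. CASM34 lay above p53WT in IDUA, ARSA, GNPTG and GAA and below it in PPT1, while the groups overlapped in GNPTAB.

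GAA, which digests glycogen in the lysosome and is deficient in Pompe disease, had 76.7 and 69.3 CPM in CASM34, against 63.3 and 61.7 CPM in p53WT. The groups did not overlap, and its log2 fold change of 0.23 (SE 0.06) lay just outside the threshold (edgeR adjusted p = 0.0648). It passed without CASM34 replicate 2 (0.30, edgeR adjusted p = 0.00124), was lower and did not pass without CASM34 replicate 1 (0.15, edgeR adjusted p = 0.321), and lay at -0.01 once corrected for GC and length. The mannosidase MAN2B1 lay at 0.20 (SE 0.05, adjusted p = 0.0671 by edgeR) and also passed without CASM34 replicate 2 (0.21, edgeR adjusted p = 0.0447), but not without CASM34 replicate 1 (0.18, edgeR adjusted p = 0.183) or either p53WT library. Once corrected for GC and length it lay at 0.06. Its TPM overlapped between the groups, with 34.4 and 30.6 TPM in CASM34 and 34.6 and 30.1 TPM in p53WT, and in limma on log2(TPM + 1) it lay at 0.01.

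FUCA2, a fucosidase that is also secreted and the most abundant glycosidase gene here, had 161 and 156 CPM in CASM34, against 163 and 168 CPM in p53WT. Its log2 fold change was -0.06 (SE 0.05, adjusted p = 0.571 by edgeR). The galactosidases GALC, which acts on galactosylceramide and is deficient in Krabbe disease, and GLA, which is deficient in Fabry disease, lay at -0.10 and -0.08. GUSB, MANBA and HEXA, the last the alpha subunit of the hexosaminidase deficient in Tay-Sachs disease, lay between 0.00 and 0.01, each with a standard error larger than its fold. NAGLU, a heparan sulfate enzyme, lay at 0.14 and lay at -0.08 once corrected for GC and length.

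All 5 sulfatase genes lay above 0, and 1 of them, ARSA, rose. With the GC and length offset 4 of the 5 lay above 0, and GALNS lay at -0.03. ARSA, arylsulfatase A, is deficient in metachromatic leukodystrophy (ENSG00000100299.18, chromosome 22, 50622754 to 50628173, minus strand). It had 14.1 and 14.7 CPM in CASM34, against 10.3 and 9.95 CPM in p53WT. In CPM the libraries of a group lay close together. In TPM, with 10.2 and 9.67 in CASM34 and 8.18 and 6.70 in p53WT, the p53WT libraries were about as far from each other as from the nearest CASM34 library. Its log2 fold change was 0.51 (SE 0.11, adjusted p = 0.0306 by edgeR), and its counts were whole in every library. The call was lost without p53WT replicate 1 (0.53, edgeR adjusted p = 0.130) and without p53WT replicate 2 (0.49, edgeR adjusted p = 0.150). For ARSA the correction for GC and length gave 0.26 (adjusted p = 0.337), that for effective length 0.43 (adjusted p = 0.359) and limma on log2(TPM + 1) 0.38 (adjusted p = 0.405).

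GALNS, which removes sulfate from keratan and chondroitin sulfate and is the most abundant sulfatase gene, had 81.3 and 82.4 CPM in CASM34, against 77.5 and 75.1 CPM in p53WT. The groups did not overlap, and the log2 fold change of 0.10 (SE 0.05, adjusted p = 0.314 by edgeR) did not pass. SGSH, a heparan sulfate sulfatase, lay at 0.20 (SE 0.07, adjusted p = 0.165 by edgeR), and its TPM was much higher in CASM34 replicate 1 (24.6) than in CASM34 replicate 2 (16.5), against 16.7 and 15.3 TPM in p53WT. Its fold passed without CASM34 replicate 2 (0.27, edgeR adjusted p = 0.0292), lay at 0.12 without CASM34 replicate 1 (edgeR adjusted p = 0.622) and at 0.02 once corrected for GC and length. ARSB lay at 0.09 and IDS at 0.05. Of the 5 listed enzymes that take part in heparan sulfate breakdown (IDUA, IDS, SGSH, NAGLU and GUSB, grouped with their values known), all lay above 0 without an offset, and IDUA alone passed. GUSB lay at only 0.01 (SE 0.05), and 28 of all 39 genes lay above 0. With the GC and length offset NAGLU lay at -0.08 and GUSB at -0.05. Of 9 listed genes of sphingolipid breakdown, grouped in the same way, 6 lay above and 3 below 0.

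Of 5 genes for lipid breakdown none passed, with 2 above and 3 below 0. PSAP, whose product is cut into the saposins that present sphingolipids to their hydrolases, had 429 and 437 CPM in CASM34, against 408 and 413 CPM in p53WT, a log2 fold change of 0.08 (SE 0.04, adjusted p = 0.395 by edgeR). PPT1, a thioesterase that removes palmitate from proteins (ENSG00000131238.18, chromosome 1, 40071461 to 40097727, minus strand), had 126 and 127 CPM in CASM34, against 144 and 142 CPM in p53WT. Both CASM34 libraries lay below both p53WT libraries by more than the spread within a group. The log2 fold change of -0.18 (SE 0.04, adjusted p = 0.0646 by edgeR) lay just outside the threshold. It passed once the filter on low counts was dropped (edgeR adjusted p = 0.0275), as did GAA and MAN2B1 (edgeR adjusted p = 0.0104 and 0.0472). PPT1, GAA and MAN2B1 also passed with the replicate block (edgeR adjusted p = 0.00958, 0.00390 and 0.0153).

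PPT1 kept its sign in every alternative, from -0.19 without CASM34 replicate 2 to -0.14 with the GC and length offset. Its exons share 1189 bases, 23.4% of their length, with the abundant actin regulator gene CAP1 on the opposite strand, which lay at -0.06 (edgeR adjusted p = 0.541). The acid ceramidase gene ASAH1 lay at -0.11, the acid sphingomyelinase gene SMPD1 at 0.14 and the cholesteryl ester lipase gene LIPA at -0.04 (edgeR adjusted p = 0.421, 0.449 and 0.805). SMPD1 lay at -0.00 in limma on log2(TPM + 1).

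None of the 6 membrane protein genes passed, with 3 above and 3 below 0. CD63, a tetraspanin of late endosomes and exosomes (ENSG00000135404.12, chromosome 12, 55725323 to 55729707, minus strand), had 306 and 308 CPM in CASM34, against 270 and 292 CPM in p53WT. The groups did not overlap, but the p53WT libraries differed from each other by more than the nearest libraries of the groups did. The log2 fold change was 0.13 (SE 0.05, adjusted p = 0.202 by edgeR), and once corrected for GC and length it lay at 0.12. Leaving out a p53WT library moved it, to 0.07 without p53WT replicate 1 and 0.19 without p53WT replicate 2, and it passed in neither. LAMP1, a major glycoprotein of the lysosomal membrane, lay at 0.10, and its relative LAMP2 lay at -0.02.

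The calcium channel gene MCOLN1, which acts upstream of TFEB, lay at 0.04 and lay at -0.12 once corrected for GC and length. CLN3 lay at -0.03, and SCARB2, the receptor that carries glucocerebrosidase to the lysosome, lay at -0.04. All of these had adjusted p-values of 0.322 or more by edgeR.

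GNPTG, the gene for the gamma subunit of N-acetylglucosamine-1-phosphotransferase, rose, and GNPTAB, the gene for its alpha and beta subunits, did not pass. The enzyme places the mannose-6-phosphate tag on hydrolases, and loss of the gamma subunit causes mucolipidosis III gamma. GNPTG (ENSG00000090581.11, chromosome 16, 1351923 to 1364113, plus strand) had 26.4 and 27.3 CPM in CASM34, against 20.7 and 21.7 CPM in p53WT. Both CASM34 libraries lay above both p53WT libraries, with 25.3 and 25.1 TPM in CASM34 and 19.3 and 22.6 TPM in p53WT. The log2 fold change was 0.34 (SE 0.08, adjusted p = 0.0477 by edgeR). The call was lost without p53WT replicate 1 (0.30, edgeR adjusted p = 0.285) and without p53WT replicate 2 (0.37, edgeR adjusted p = 0.139).

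For GNPTG the correction for GC and length gave 0.21 (adjusted p = 0.272), that for effective length 0.27 (adjusted p = 0.432) and limma on log2(TPM + 1) 0.26 (adjusted p = 0.422). It shares 909 exon bases, 22.2% of its exons, with UNKL on the opposite strand (log2 fold change 0.16, edgeR adjusted p = 0.305), and its counts were fractional in all 4 libraries, so its level is uncertain to that extent. GNPTAB had 38.2 and 36.2 CPM in CASM34, against 37.8 and 32.3 CPM in p53WT, and the groups overlapped. Its log2 fold change of 0.09 (SE 0.08, adjusted p = 0.594 by edgeR) turned to -0.06 with an effective length offset. Whether the 2 subunit genes differ in their response was not tested.

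**Figure D4:**
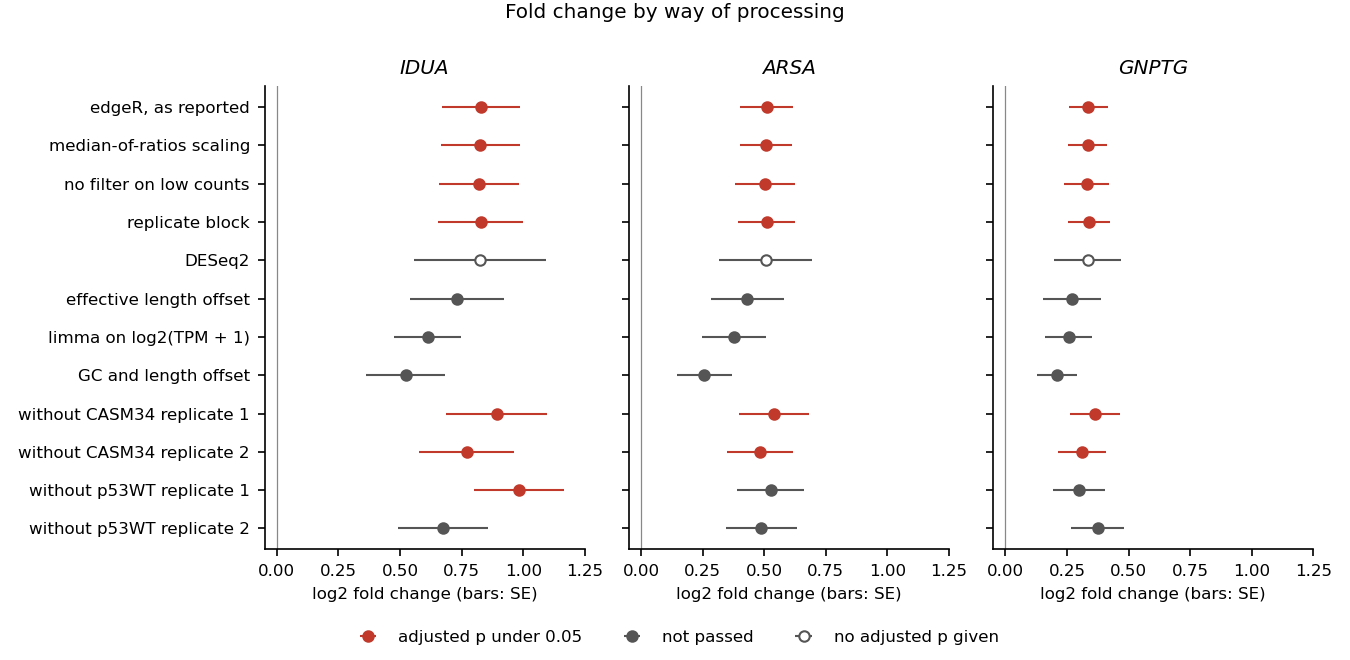
Log2 fold change of CASM34 over p53WT for IDUA, ARSA and GNPTG under each way of processing; bars are standard errors, red marks an adjusted p under 0.05 and open points mark DESeq2, which gave these genes no adjusted p. All values lay above 0, and the lowest were those with the GC and length offset, at 0.52, 0.26 and 0.21.

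The 2 transcription factor genes did not pass, and their levels differed widely from each other. TFE3 had 38.9 and 34.6 TPM in CASM34, against 35.6 and 36.7 TPM in p53WT. TFEB had 2.35 and 1.69 TPM in CASM34, against 2.87 and 1.64 TPM in p53WT, from 53 to 108 estimated counts per library. In each library the TPM of TFE3 was thus many times that of TFEB, by 16.5 and 20.4 times in CASM34 and by 12.4 and 22.4 times in p53WT.

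In CPM, TFE3 had 97.5 and 86.9 in CASM34, against 88.3 and 92.2 in p53WT, and TFEB had 4.04 and 2.90 in CASM34, against 4.65 and 2.79 in p53WT. In both genes the groups overlapped. The log2 fold change of TFE3 was 0.03 (SE 0.06, adjusted p = 0.812 by edgeR) and that of TFEB -0.06 (SE 0.25, adjusted p = 0.929 by edgeR), and the error of TFEB is too large at this depth to show a change of the size seen in GNPTG. Without p53WT replicate 1 TFEB lay at 0.33 and without CASM34 replicate 2 at 0.13, while without p53WT replicate 2 it lay at -0.40 and without CASM34 replicate 1 at -0.34. Once corrected for GC and length it lay at -0.25. Of the other family members MITF had 0.410 and 0.900 TPM in CASM34, against 0.620 and 0.340 TPM in p53WT, and TFEC had at most 1 count in any library.

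The share of G and C in the transcripts moved with the fold changes, in these genes as in all genes. The 28 genes above 0 had a median GC content of 56.9% and the 11 below 0 one of 45.2%. Over the 39 genes, which share the same 4 libraries, Spearman's rho between GC content and log2 fold change was 0.70, and over the 15652 tested genes with a GC value it was 0.47. With the GC and length offset it was -0.05 over the 39 genes. In CASM34 the level of a library rose with GC content, by 0.0651 and 0.0349 on the log2 scale per 10 percentage points relative to the mean of the libraries, against slopes of -0.0531 and -0.0470 in p53WT.

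By class of GC content, 12 of the 39 genes lay under 50%, 18 between 50% and 60% and 9 at 60% or more. In the lowest class the median log2 fold change was -0.04 for the list and -0.06 for all 8156 tested genes of the class, and none of the 12 passed, where 0.196% of all genes of the class rose. In the middle class it was 0.09 for the list and 0.04 for 5041 genes, and GNPTG rose, 5.56% of 18 genes against 0.853% of all genes of that class. In the highest class it was 0.15 for the list and 0.17 for 2455 genes, and ARSA and IDUA rose, 22.2% of 9 genes against 7.98% of all genes of that class. GNPTG, at 59.9% GC, lies just under the cut at 60%, so the share it is set beside depends on where the cut was placed. The classes hold few genes of the list and were set with these results known.

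**Figure D5:**
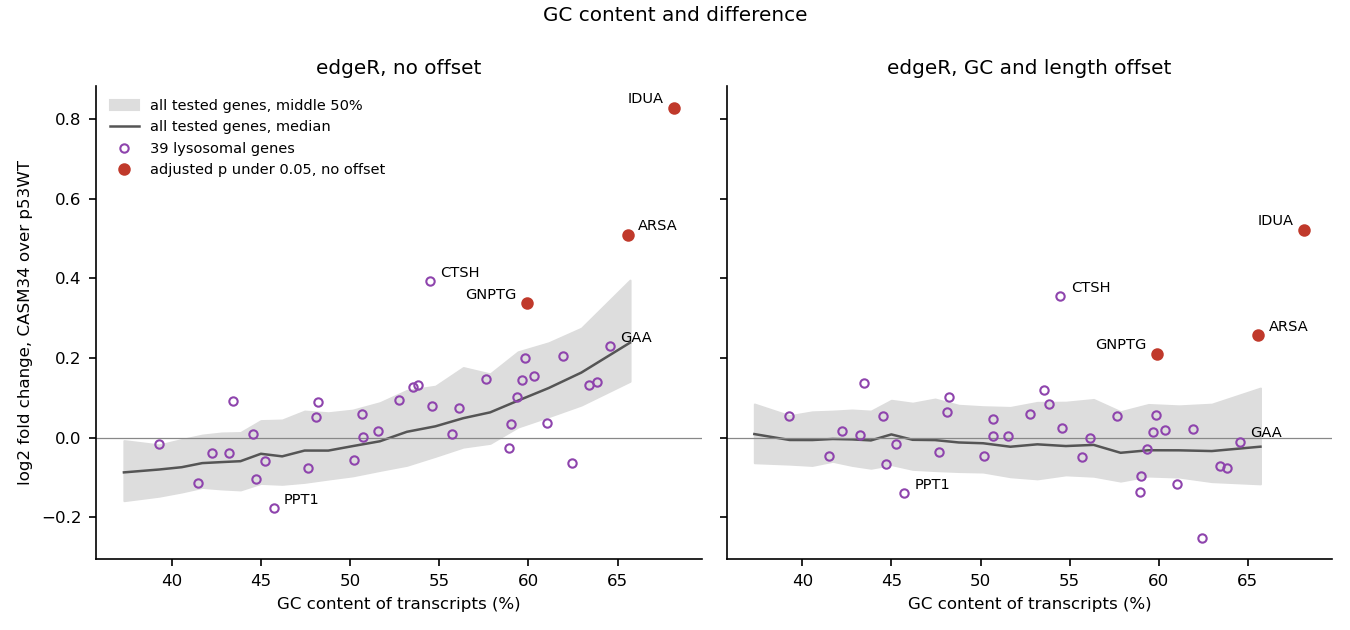
Log2 fold change of CASM34 over p53WT against the GC content of the transcripts, without (left) and with (right) the GC and length offset; circles are the 39 genes, filled where they rose without the offset, the line is the median over 20 equal classes of all tested genes and the band their middle 50%. IDUA, ARSA, GNPTG and CTSH lie farthest above the band in both panels, while GAA and CTSD lie within it in both.

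Other genes of the lysosome were taken from 6 lists. Of 20 further hydrolases and activators 19 were tested, and DPP7, a dipeptidyl peptidase, rose. It had 128 and 121 CPM in CASM34, against 106 and 107 CPM in p53WT, a log2 fold change of 0.22 (SE 0.05, adjusted p = 0.0336 by edgeR). DPP7 also passed in DESeq2 (0.22, adjusted p = 0.0416 by DESeq2). It did not pass with the effective length offset (0.22, edgeR adjusted p = 0.276) or in limma on log2(TPM + 1) (0.21, limma adjusted p = 0.338). Corrected for GC and length DPP7 lay at -0.05, and its transcripts have 67.3% GC. The call was lost without p53WT replicate 1 (0.21), p53WT replicate 2 (0.23) or CASM34 replicate 1 (0.18; edgeR adjusted p = 0.179, 0.107 and 0.114). The median of this list was 0.03.

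Of 15 further membrane proteins and transporters ABCA2, a lipid transporter gene, rose, with 36.5 and 39.7 CPM in CASM34, against 32.1 and 28.8 CPM in p53WT. Its log2 fold change was 0.32 (SE 0.07, adjusted p = 0.0478 by edgeR). Corrected for GC and length it was 0.09, and the transcripts of ABCA2 have 63.8% GC. It did not pass without p53WT replicate 1 (0.39, edgeR adjusted p = 0.0906) or p53WT replicate 2 (0.24, edgeR adjusted p = 0.268). The median of this list was 0.04.

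None of the 16 genes of the V-ATPase, the proton pump that acidifies the lysosome, passed, with 8 above and 8 below 0, a median of 0.00 and extremes of -0.15 and 0.20. None of 19 genes for delivery to lysosomes passed, among them the mannose-6-phosphate receptor genes M6PR and IGF2R, with a median of 0.02. None of the 19 tested genes for the control of TFEB by mTORC1 and the Rag GTPases passed (median -0.03, 9 above and 10 below 0), nor did any of the 16 tested autophagy genes (median 0.01, 8 above and 8 below 0). At an unadjusted p under 0.05 the numbers in these 4 lists were 4, 4, 0 and 2 by edgeR, and 13 of the 39 lysosomal genes had one, where 17.1% of all 15965 genes tested did (2734 genes).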

How the data were processed

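The tools named are Trim Galore, STAR and RSEM and the build is GRCh38, per the submitters' processing notes; neither versions, annotation release nor strand setting is given in the sources used here. Expected counts, as deposited, are the authors' RSEM estimates per gene, which share reads among gene models, and the deposited TPM values are scaled for effective length by the authors; the deposited effective length, in bases, served as an offset. FPKM values, which RSEM scales by length and depth, were deposited by the authors alongside and not used.

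Expected counts were rounded and tested with edgeR 4.0.16 in R 4.3.3 (glmQLFit and glmQLFTest, TMM, filterByExpr with a minimum count of 10, group only), and 45887 of 61852 genes were removed as too low. Each standard error was taken as the size of the fitted log2 value over the root of its F statistic. Coordinates and GC content are from GENCODE 29. The GC and length offset fitted each library's deviation from the gene mean with splines of 5 degrees of freedom. Alternatives used DESeq2 1.42.0 and limma 3.58.1 (log2 of TPM + 1), among others. The scripts were tested on simulated data. Within a group, counts differed by more than counting error (chi-square per degree of freedom 3.92 in CASM34 and 3.86 in p53WT), so no library was a duplicate.

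The 39 genes, their roles, the other lists, the motifs and the GC classes were chosen with earlier results of these data known. Every member is named; values per library are given for those past the threshold, for TFEB and TFE3, and for the most abundant and the most changed gene of each role, and others are added where a result turned on them. Of the other lists, genes past the threshold are named. The level of the introduced gene is not reported here.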

Additional observations from a re-analysis of the deposited data

How the results depend on the processing

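The limits are the 2 libraries per group, unknown strand and library trends on GC content. Against 3 genes that rose and 0 that fell, and 312 of all genes changed, the counts were as follows. With no filter on low counts 5 rose and 1 fell, and 777 of all genes changed. With the replicate block 7 rose and 1 fell, and 1159 of all genes changed. The deviations of equally numbered libraries correlated by 0.0335. With 2 libraries per group that is 1 comparison, and whether such libraries share more than a number cannot be told from it. With DESeq2 0 rose and 207 of all genes changed, but it gave 18 of the 39 no adjusted p, the 3 that rose among them; 9 members and 1245 of 26177 genes had an unadjusted p under 0.05. With the effective length offset 0 rose and 5 genes changed (6 members and 1882 genes at an unadjusted p under 0.05). In limma on log2(TPM + 1) 0 rose and 0 genes changed (6 and 1820), and the list's median was 0.0573. With the GC and length offset 0 rose and 119 genes changed (7 and 1973), and the median was 0.0148. Leaving out 1 library gave 0 to 6 that rose, 109 to 919 genes changed and a median of 0.0541 to 0.0687; the lowest number that rose was without p53WT replicate 2, and without p53WT replicate 1 it was 1.

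None of the folds that changed sign had passed. With the GC and length offset the sign turned for folds near 0 and for some larger ones (GAA from 0.23, NAGLU from 0.14, CTSD from 0.13 and GALNS from 0.10), and the values were CTSB at -0.000687, CTSD at -0.0711, GAA at -0.00972, GALNS at -0.0273, GUSB at -0.0496, LAMP2 at 0.0556, LIPA at 0.0163, MCOLN1 at -0.117, NAGLU at -0.0767, SCARB2 at 0.00662 and TFE3 at -0.0953. With the effective length offset they were FUCA2 at 0.0066, GALC at 0.0189, GNPTAB at -0.0628 and HEXA at -0.0359, and in limma on log2(TPM + 1) GNPTAB at -0.0467, HEXA at -0.0423 and SMPD1 at -0.00404. With DESeq2 it was HEXA at -0.00282, with median-of-ratios scaling HEXA at -0.00167 and with no filter HEXA at -0.00614. Leaving out 1 library, the ranges were CTSL from -0.131 to 0.0235, GLB1 from -0.0127 to 0.0411, GNPTAB from -0.0181 to 0.20, GUSB from -0.0291 to 0.0409, HEXA from -0.0381 to 0.0393, LAMP2 from -0.0507 to 0.0124, MANBA from -0.0335 to 0.0526, MCOLN1 from -0.0146 to 0.0792, SCARB2 from -0.114 to 0.0418, TFE3 from -0.0574 to 0.11 and TFEB from -0.397 to 0.332. The cause of these changes was not tested.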
